A study of Mus musculus with 111 samples.

Results

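The 8 genes described here are grouped under the club cell, the secretory and detoxifying cell that lines the conducting airways of the mouse lung. They are 3 secretoglobins (Scgb1a1, Scgb3a1 and Scgb3a2) and 5 enzymes (Cyp2f2, Cyp4b1, Cbr2, Aldh1a1 and Fmo2). They were chosen by name, and their probesets were those annotated to 1 of these genes alone, 12 of the 27871 probesets with a single gene. Each gene was represented by its most variable probeset, which gave 8 of the 15707 genes measured. Only Fmo2 had more than 1 probeset, with 5.

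Club cells release secretoglobins, small secreted proteins of the airway lining fluid, and are known in the mouse as the main site of cytochrome P450 activity in the bronchioles. Because these enzymes turn inhaled compounds into reactive products, the cells are injured by chemicals such as naphthalene, and those that survive divide to restore the airway surface. Club cells are a small share of a whole lung homogenate, and RNA of these genes from other lung cells cannot be set apart. Nor can fewer club cells be told apart from less RNA in each cell.

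Gene expression was profiled in the lungs of 56 bleomycin and 55 saline mice, 1 mouse per Affymetrix mouse genome array. They were male C57BL6/J mice, 7 to 9 weeks old when purchased. The mice had received bleomycin, an antibiotic that breaks DNA strands, as a single intratracheal spray of 2 U/kg in 50 µl, or saline alone in the same volume. Lungs were taken at days 1 and 2 (the inflammation phase), days 7 and 14 (active fibrosis) and days 21, 28 and 35 (late fibrosis). Each bleomycin group held 8 mice and each saline group 8, apart from the 7 saline mice left at day 14 after the authors removed 1 array. The left and right lungs of a mouse were homogenized together, and these mice had undergone neither lavage nor lung function measurement. Values are robust multi-array average (RMA) signals on a log2 scale, so a difference of 1 is a 2-fold change. The lung markers Sftpc, a surfactant protein, and Ager, of alveolar type I cells, had mean signals of 14.4 and 14.0. The arrays had medians from 8.61 to 8.73, and 3 stood slightly apart from their groups by median correlation: bleomycin replicate 4 of day 21 (0.984), bleomycin replicate 3 of day 35 (0.984) and saline replicate 3 of day 7 (0.986).

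The signals of most of these genes lay near the top of the scale. Scgb1a1 had the highest mean signal of all 15707 genes and the highest signal on 86 arrays, and its values over all lungs ran only from 14.46 to 14.69. Cbr2, Scgb3a2, Cyp2f2, Aldh1a1, Scgb3a1 and Cyp4b1 held ranks 11, 13, 25, 35, 64 and 85 by mean signal, an order of probe brightness and not of RNA amount. Among the brightest 1% of genes, 158 in number, the median absolute log2 difference between bleomycin and saline lungs at day 14 was 0.0977, against 0.150 over all genes. On that day 0 of the 158 changed more than 2-fold, and 497 of all 15707 genes did. Whether the small size of the differences below stems from this part of the scale was not tested.

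Promoter sequences are shown for 4 of the genes because the levels of Cyp2f2, Cbr2 and Cyp4b1 were correlated among bleomycin lungs (below) and that of Scgb3a1 was not correlated with them in the same way there. In saline lungs Cyp4b1 had correlations of 0.06 with Cyp2f2 and 0.13 with Cbr2, and Scgb3a1 had 0.42 with Cyp2f2. The RefSeq table used (GRCm38.p6) held promoters for 6 of the 8 genes, and Scgb1a1 and Scgb3a2 were not among them. Each line gives the 250 bases before the annotated start, 5′ to 3′ along the gene's strand, at chr7:27119705-27119954 (plus strand) for Cyp2f2, chr11:120732022-120732271 (minus strand) for Cbr2, chr4:115647722-115647971 (minus strand) for Cyp4b1 and chr11:49663345-49663594 (plus strand) for Scgb3a1. Capitals mark matches to the short motifs searched on both strands.
Cyp2f2: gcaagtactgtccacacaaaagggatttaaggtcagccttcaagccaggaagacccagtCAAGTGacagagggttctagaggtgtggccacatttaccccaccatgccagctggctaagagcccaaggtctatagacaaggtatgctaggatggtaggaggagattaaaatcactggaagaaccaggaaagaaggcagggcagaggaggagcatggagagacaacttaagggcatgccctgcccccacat
Cbr2: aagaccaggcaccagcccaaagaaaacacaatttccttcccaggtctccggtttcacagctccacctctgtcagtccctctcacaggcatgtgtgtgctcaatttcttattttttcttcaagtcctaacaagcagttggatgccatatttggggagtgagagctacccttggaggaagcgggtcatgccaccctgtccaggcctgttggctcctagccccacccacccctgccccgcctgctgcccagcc
Cyp4b1: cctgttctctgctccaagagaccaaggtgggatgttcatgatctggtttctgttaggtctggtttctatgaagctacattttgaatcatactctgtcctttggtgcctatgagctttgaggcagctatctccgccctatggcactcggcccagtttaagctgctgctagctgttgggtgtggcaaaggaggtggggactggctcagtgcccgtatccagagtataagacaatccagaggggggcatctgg
Scgb3a1: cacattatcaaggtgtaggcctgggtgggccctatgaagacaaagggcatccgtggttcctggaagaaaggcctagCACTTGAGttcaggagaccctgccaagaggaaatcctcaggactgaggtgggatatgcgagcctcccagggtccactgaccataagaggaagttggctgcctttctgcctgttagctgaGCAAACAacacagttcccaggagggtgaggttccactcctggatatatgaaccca
The motifs were TGTTTAC or TGTTTGC (a FOXA-like site), CTCAAG or CACTTG (NKX2-1-like) and TTGCGCA or TTGCAAT (C/EBP-like), counted from 250 bases before to 50 bases after the start. On opposite strands CACTTG and CTCAAG overlap, and the run of capitals in Scgb3a1 that opens with CACTTG counts as a match to both. The 6 genes had 8 promoters, since Aldh1a1 and Fmo2 had 2 each. A FOXA-like word stood in 2 of the 8 (Scgb3a1 and 1 of Fmo2) and in 8.48% of the 32851 promoters in the table. An NKX2-1-like word stood in 3 of the 8 (Scgb3a1, Cyp2f2 and 1 of Aldh1a1) and in 26.4% of all promoters. A C/EBP-like word stood in 0 of the 8 and in 4.21% of all. No match was found in the printed promoters of Cbr2 and Cyp4b1. Such matches describe letters only.

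Of the 8 genes 0 rose on each of the 7 days, and between 2 and 7 fell. At day 1, 4 genes fell (Scgb1a1, Scgb3a2, Cyp2f2 and Cbr2), while 16.7% of all genes fell and 14.7% rose at that day. At day 2, 3 fell (Scgb3a2, Cyp2f2 and Cbr2), against 13.1% of all genes that fell and 14.2% that rose. At day 7, 4 fell (Cyp2f2, Cyp4b1, Cbr2 and Aldh1a1), against 21.9% that fell and 25.7% that rose, and at day 14, 7 fell, all but Scgb3a1, against 19.7% that fell and 21.9% that rose. At day 21, 2 fell (Cyp4b1 and Fmo2), against 18.9% that fell and 20.5% that rose. At day 28, 5 fell (Scgb3a2, Cyp4b1, Cbr2, Aldh1a1 and Fmo2), against 11.8% that fell and 11.5% that rose, and at day 35, 2 fell (Scgb3a2 and Cyp4b1), against 12.5% that fell and 16.9% that rose. A gene is said to fall where its adjusted p was under 0.05 in limma. That is a linear model with a mean for each of the 14 groups, with Benjamini-Hochberg adjustment over all genes. The brightest 1% of genes held all of the 8 but Fmo2. Of that set 13.3%, 19%, 29.1%, 31.6%, 19%, 12.7% and 12% fell on the 7 days in order. The median log2 difference of the 8 was -0.33 at day 14 (range from -0.70 to -0.06). It was between -0.13 and -0.08 on the other days, where the median over all genes was between -0.01 and 0.02.

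The counts at days 21 and 35 changed when 1 lung was left out. Without bleomycin replicate 4 of day 21, which had the highest signal of its group for Cyp4b1, Cbr2, Cyp2f2, Scgb3a2, Aldh1a1 and Fmo2, 4 genes fell at that day, with Cyp2f2 (-0.13, adjusted p = 0.0392) and Cbr2 (-0.12, adjusted p = 0.0376) added in limma. Without bleomycin replicate 3 of day 35, which had the lowest signal of its group for Cyp2f2, Cyp4b1, Cbr2, Aldh1a1 and Fmo2, 0 genes passed at day 35 in limma, and Cyp4b1 had -0.18 (adjusted p = 0.0724) and Scgb3a2 -0.11 (adjusted p = 0.107).

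**Figure D1:**
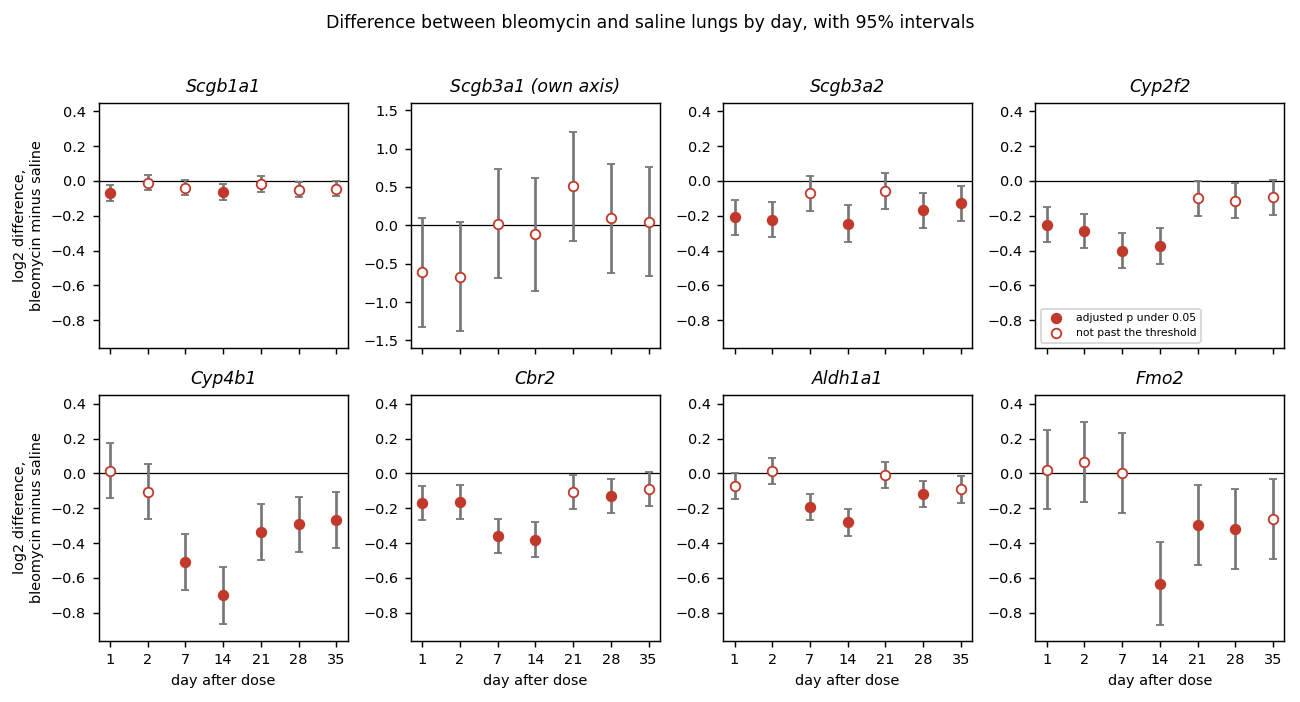
Log2 difference between bleomycin and saline lungs (vertical axis, limma estimate with its 95% interval) by day after the dose (horizontal axis) for each of the 8 genes, where filled points passed an adjusted p under 0.05. Cyp4b1 and Fmo2 reached -0.70 and -0.63 at day 14, and the panel of Scgb3a1 has an axis of its own because its intervals are wider.

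Scgb1a1 encodes the club cell secretory protein, the most abundant secretoglobin of the airway. Its signal lay at the top of the scale, where quantile normalization set the differences of days 21 and 35 to 0.00. At day 1 the lowest, median and highest bleomycin lungs had 14.47, 14.52 and 14.60 and the saline lungs 14.58, 14.59 and 14.64, and 6 of 8 bleomycin lungs lay below every saline lung. It fell by 4.75% (log2 difference -0.07, standard error 0.02, adjusted p = 0.0116, limma). At day 14 the values were 14.46, 14.53 and 14.59 in bleomycin lungs, against 14.50, 14.60 and 14.69 in saline lungs, so the groups overlapped. The gene fell by 0.06 (standard error 0.02, adjusted p = 0.0247), with all 8 bleomycin lungs below the saline mean and 1 below every saline lung. On the other days the differences lay between -0.05 and -0.01 without passing the test, and their intervals lay between -0.09 and 0.03. The call of Scgb1a1 day 1 was lost in 4 of 11 alternatives: renewed quantile normalization (-0.02, adjusted p = 0.318), array medians subtracted (-0.05, adjusted p = 0.215), array weights (-0.06, adjusted p = 0.0553) and each day fitted alone (adjusted p = 0.175, limma for each). That of day 14 did not pass when the day was fitted alone (adjusted p = 0.175, limma).

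Scgb3a2, a secretoglobin of the bronchioles, fell on 5 of the 7 days. At day 2 its bleomycin lungs had 13.83, 13.89 and 13.99 (lowest, median and highest), against 14.04, 14.11 and 14.20 in saline lungs, so the groups did not overlap. The difference was -0.22 (standard error 0.05, adjusted p = 0.000401, limma). At day 14 the values were 13.54, 13.88 and 14.02 in bleomycin lungs and 14.04, 14.12 and 14.22 in saline lungs, again with no overlap, and the difference was -0.24 (standard error 0.05, adjusted p = 7.89e-05). At day 1 it fell by 0.21 (adjusted p = 0.000941), at day 28 by 0.17 (adjusted p = 0.0106) and at day 35 by 0.13 (adjusted p = 0.0483, limma for each). The call of Scgb3a2 day 35 was lost in 4 of 12 alternatives, after quantile normalization (adjusted p = 0.0612), with the replicate block (0.0534), with the day fitted alone (0.0662) and without bleomycin replicate 3 (-0.11, adjusted p = 0.107, limma for each). At day 7 the bleomycin lungs averaged 14.06 ± 0.09 and the saline lungs 14.13 ± 0.15 (SD, n = 8 each), a difference of -0.07 with a 95% interval from -0.17 to 0.03. At day 21 it was -0.06, with an interval from -0.16 to 0.04.

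Scgb3a1, a secretoglobin found mainly in the larger airways, passed the test on no day and spread widely among lungs. Its pooled standard deviation within groups was 0.73, and those of the other 7 genes ran from 0.04 (Scgb1a1) to 0.23 (Fmo2). At day 1 the bleomycin lungs had 11.89, 13.29 and 13.92 (lowest, median and highest) and the saline lungs 13.12, 14.02 and 14.14, which is a difference of -0.61 with a 95% interval from -1.32 to 0.10 (adjusted p = 0.190, limma). At day 2 the values were 12.43, 13.28 and 13.60 in bleomycin lungs, against 13.38, 13.82 and 14.05 in saline lungs, and 4 of 8 bleomycin lungs lay below every saline lung. This difference was -0.67 (interval from -1.38 to 0.04, adjusted p = 0.162, limma), and it passed when day 2 was fitted alone (adjusted p = 0.00578). From day 7 the differences were 0.02, -0.12, 0.51, 0.09 and 0.05 (days 7, 14, 21, 28 and 35), with intervals that each spanned 0.

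Single lungs lay far below the rest of their groups. Bleomycin replicate 2 of day 7 had 10.62, where the next lowest lung of its group had 13.14, saline replicate 5 of day 7 had 10.34, next to 13.10, and saline replicate 6 of day 21 had 10.37, next to 13.19. Bleomycin replicate 4 of day 1 (11.89), saline replicate 7 of day 1 (13.12) and saline replicate 3 of day 2 (13.38) also lay apart from their groups. Saline replicates 3 and 6 of day 35 (11.03 and 12.05) and saline replicate 4 of day 28 (12.36) were low too. They are not among the 6 lungs described here, which were picked by Dixon's test on the gap to the next lung of the group. In each of these 6 lungs Bpifb1 and Bpifa1, secreted proteins of the proximal airway, Reg3g, an antibacterial lectin, Muc5b, an airway mucin, and Tff2, a trefoil peptide, were likewise the lowest of their group. These 5 are the genes whose levels correlated most closely with Scgb3a1 over the same lungs, so their low values there are a description and no independent support. In bleomycin replicate 2 of day 7 Bpifa1 had 8.10, against 12.05 to 13.90 in the other 7 lungs, and Reg3g 6.70, against 11.58 to 13.53. The mean level of 23 ciliated cell markers was the lowest of its group in all 6 lungs (9.60 in that lung, against 9.73 to 10.15 in the others). So was that of 31 other club cell genes. Some gaps were small. Saline replicate 3 of day 2 had a ciliated mean of 9.997, next to 10.0005. Bleomycin replicate 4 of day 1 had 10.5637 for the other club cell genes, next to 10.5663. Scgb3a2 was the lowest of its group in 4 of the 6 lungs, Foxj1 in 3, the mean of 14 cartilage markers in 1 and Scgb1a1 in 0. The part of these differences between lungs in the comparisons of Scgb3a1 was not tested.

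**Figure D2:**
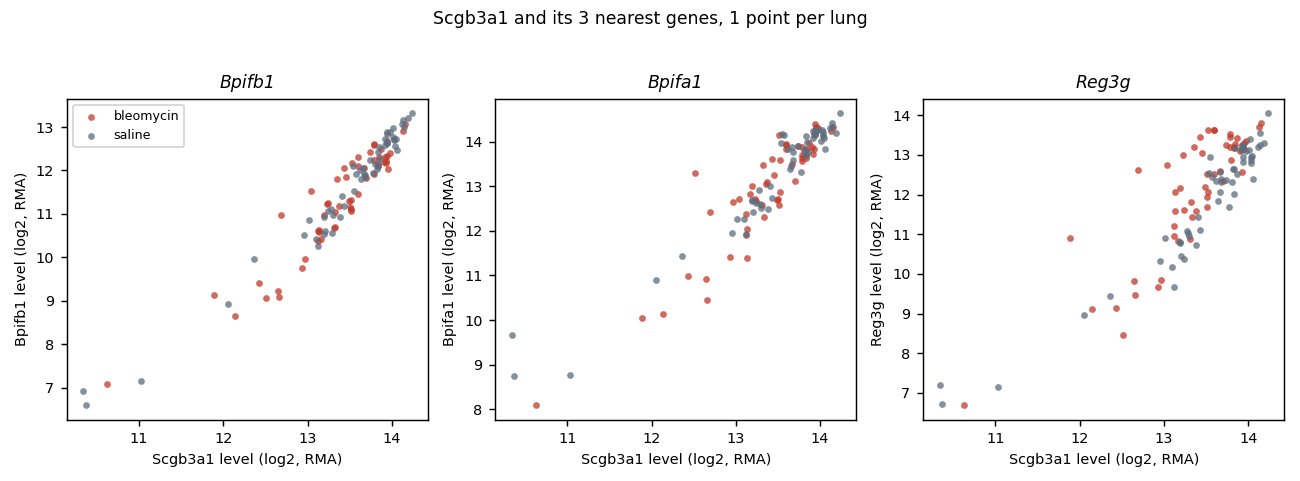
Levels (log2, RMA) of Bpifb1, Bpifa1 and Reg3g (vertical axes) against Scgb3a1 (horizontal axis), 1 point per lung, for bleomycin and saline lungs. The lungs with Scgb3a1 at 10.34, 10.37 and 10.62 are at the low end of each panel. Some early bleomycin lungs had more Reg3g than saline lungs of like Scgb3a1. Bleomycin replicate 3 of day 2 had 12.75 at a Scgb3a1 of 13.04, and saline replicate 3 of day 14 had 10.92 at 13.01. Others did not: bleomycin replicate 5 of day 2 had 9.14 at 12.43, and saline replicate 4 of day 28 had 9.44 at 12.36.

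Cyp2f2, the P450 that activates naphthalene in mouse club cells, fell at days 1, 2, 7 and 14. At day 1 its bleomycin lungs had 13.44, 13.71 and 13.79 (lowest, median and highest) and its saline lungs 13.83, 13.92 and 14.00, with no overlap, a difference of -0.25 (standard error 0.05, adjusted p = 6.04e-05, limma). At day 7 the values were 13.39, 13.50 and 13.81 in bleomycin lungs, against 13.81, 13.93 and 14.07 in saline lungs, and 7 of 8 bleomycin lungs lay below every saline lung. That was the largest of its differences, and the signal fell by 24.3% (log2 difference -0.40, standard error 0.05, adjusted p = 6.39e-11, limma). On day 14 the bleomycin lungs, at 13.39, 13.59 and 13.77, were all below the saline lungs, at 13.91, 13.96 and 13.97, and the difference was -0.37 (standard error 0.05, adjusted p = 4.47e-09). At day 2 it fell by 0.29 (adjusted p = 3.82e-06, limma). In the late phase it averaged 13.82 ± 0.11, 13.86 ± 0.10 and 13.83 ± 0.10 in bleomycin lungs of days 21, 28 and 35, against 13.92 ± 0.05, 13.98 ± 0.05 and 13.92 ± 0.05 in saline lungs (SD, n = 8 each). These differences of -0.10, -0.11 and -0.09 did not pass, with intervals from -0.20 to 0.00, -0.21 to -0.01 and -0.19 to 0.01.

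Cyp4b1, a P450 of the lung that oxidizes fatty acids and activates the plant toxin ipomeanol, did not pass the test early and had the largest difference at day 14. At day 1 it averaged 13.46 ± 0.13 in bleomycin lungs and 13.44 ± 0.09 in saline lungs (SD, n = 8 each), a difference of 0.02 with an interval from -0.14 to 0.18, and at day 2 the difference was -0.10 (-0.26 to 0.06). At day 7 the bleomycin lungs had 12.71, 13.04 and 13.24 (lowest, median and highest) and the saline lungs 13.43, 13.48 and 13.55. On day 14 the values were 12.53, 12.67 and 13.29 in bleomycin lungs, against 13.41, 13.47 and 13.56 in saline lungs. On both days every bleomycin lung lay below every saline lung, and the gene fell by 0.51 (standard error 0.08, adjusted p = 7.25e-08, limma) and by 0.70 (standard error 0.08, adjusted p = 2.61e-11). On the linear scale it fell by 38.5% at day 14. Of the 8 genes, each by its most variable probeset, Cyp4b1 alone passed the test on each of days 21, 28 and 35. Its differences were -0.34 (adjusted p = 0.000375), -0.29 (adjusted p = 0.00447) and -0.27 (adjusted p = 0.00717, limma for each). The last did not pass without replicate 3 (above) or with the day fitted alone (adjusted p = 0.0616). A brighter probeset of Fmo2 also passed on each of these days (below). The bleomycin lungs of day 35 had 12.57, 13.26 and 13.43, against 13.36, 13.45 and 13.58 in saline lungs, and 5 of 8 lay below every saline lung.

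Cbr2, a carbonyl reductase abundant in rodent lung, fell on 5 of the 7 days. At day 1 every bleomycin lung, at 13.82, 14.06 and 14.10 (lowest, median and highest), was below every saline lung, at 14.11, 14.18 and 14.24, a difference of -0.17 (standard error 0.05, adjusted p = 0.00543, limma). By day 14 the groups were again apart, with 13.54, 13.76 and 14.04 in bleomycin lungs, against 14.10, 14.16 and 14.20 in saline lungs, and it fell by 23.2% (log2 difference -0.38, standard error 0.05, adjusted p = 1.12e-09). It also fell by 0.16 at day 2 (adjusted p = 0.00775), by 0.36 at day 7 (adjusted p = 8.69e-10) and by 0.13 at day 28 (adjusted p = 0.0415, limma for each), the last of which did not pass after quantile normalization or with array medians subtracted (adjusted p up to 0.0877, limma). At days 21 and 35 the differences were -0.10 (interval from -0.20 to -0.01) and -0.09 (-0.19 to 0.01).

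Aldh1a1, a retinaldehyde dehydrogenase that makes retinoic acid, fell at days 7, 14 and 28. At day 7 its bleomycin lungs had 13.48, 13.58 and 13.66 (lowest, median and highest), against 13.65, 13.73 and 13.88 in saline lungs. On day 14 the values were 13.37, 13.52 and 13.73 in bleomycin lungs and 13.70, 13.83 and 13.89 in saline lungs. On each of these days 7 of 8 bleomycin lungs lay below every saline lung, and the falls were by 0.19 (standard error 0.04, adjusted p = 1.18e-05, limma) and by 0.28 (standard error 0.04, adjusted p = 3.42e-09). At day 28 it fell by 0.12 (standard error 0.04, adjusted p = 0.0143). The differences at days 1, 2, 21 and 35 were -0.07, 0.01, -0.01 and -0.09, none of which passed, and their intervals lay between -0.17 and 0.09.

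Groups whose lungs did not overlap were thus found for 2 genes at day 1 (Cyp2f2 and Cbr2), 1 at day 2 (Scgb3a2), 1 at day 7 (Cyp4b1) and 4 at day 14 (Scgb3a2, Cyp2f2, Cyp4b1 and Cbr2). The bleomycin lungs were the lower ones in each case. Over all genes, every bleomycin lung lay below every saline lung for 1.46% at day 1, 1.9% at day 2, 4.53% at day 7 and 6.66% at day 14. At days 21, 28 and 35 this held for 0 of the 8 genes, and for 2.53%, 1.4% and 1.76% of all genes.

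**Figure D3:**
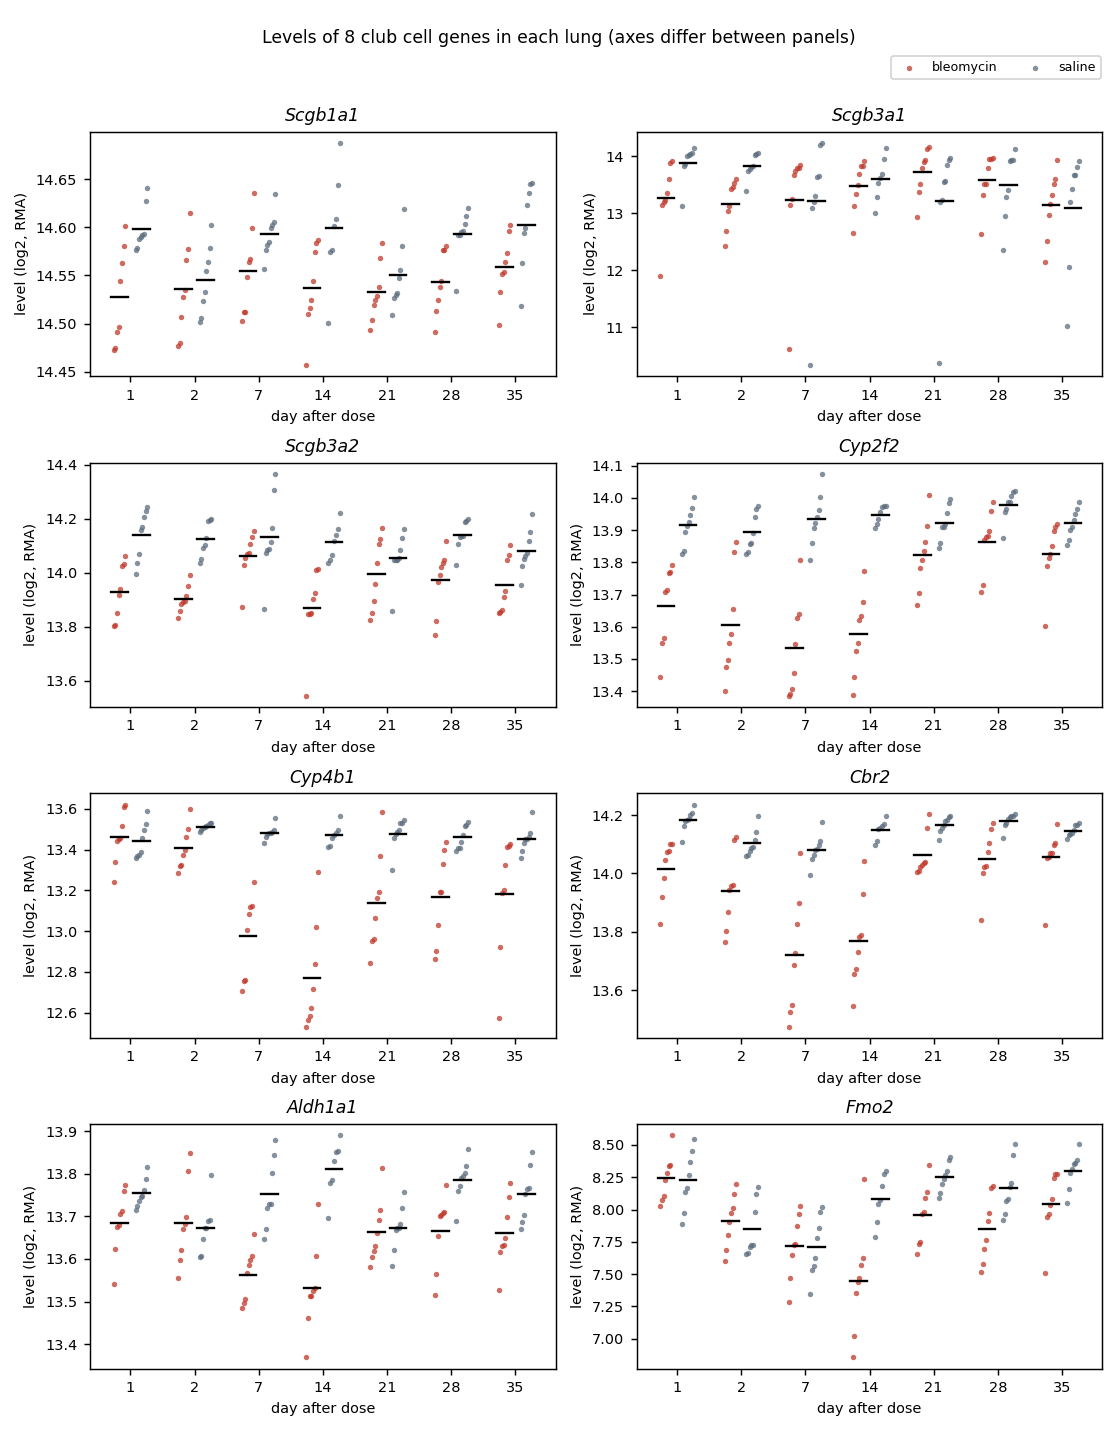
Level of each of the 8 genes (vertical axes, log2, RMA; axes differ between panels) by day after the dose (horizontal axis), 1 point per lung ordered by level, with bleomycin lungs to the left of saline lungs and black bars for group means. Cyp4b1 in bleomycin lungs of days 7 and 14 lies between 12.53 and 13.29, below all saline lungs of those days, and single lungs of both treatments are low for Scgb3a1.

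Fmo2, the flavin-containing monooxygenase of the lung, depended on the probeset at day 7. The most variable of its 5 probesets, here the dim probeset, had a mean signal of 7.98, and the other 4 had means from 12.99 to 13.15. At day 7 the dim probeset averaged 7.71 ± 0.25 in bleomycin lungs and 7.71 ± 0.23 in saline lungs (SD, n = 8 each), a difference of 0.00 with an interval from -0.23 to 0.23. On the same day the other 4 probesets differed by -0.33, -0.30, -0.25 and -0.32, and each passed the test over all 27871 probesets in limma (adjusted p from 0.000693 to 0.00403), where 48.7% of probesets passed in either direction. At day 14 the 5 probesets fell together, by 0.61 to 0.69. The lowest, median and highest bleomycin lungs of the dim probeset had 6.86, 7.45 and 8.24 on that day and the saline lungs 7.79, 8.07 and 8.30, and a bright probeset had 12.22, 12.44 and 13.07 in bleomycin lungs and 12.84, 13.18 and 13.44 in saline lungs, so that the highest bleomycin lungs overlapped the saline range. For the dim probeset the log2 difference was -0.63 (standard error 0.12, adjusted p = 6.65e-06, limma), with 7 of 8 bleomycin lungs below every saline lung. It fell by 0.29 at day 21 (adjusted p = 0.0338) and by 0.32 at day 28 (adjusted p = 0.0342). Against all 55 saline lungs Fmo2 day 21 had -0.13 (adjusted p = 0.224) and did not pass, and Fmo2 day 28 did not pass with array medians subtracted (-0.31, adjusted p = 0.0523) or in 1 other probeset (-0.22, adjusted p = 0.0501, limma for each). The difference of -0.26 at day 35 did not pass (interval from -0.49 to -0.03, adjusted p = 0.0780). Of the brighter probesets 1 fell on each of days 21, 28 and 35, by 0.20, 0.21 and 0.21. Its adjusted p was 0.0340, 0.0421 and 0.0289 in limma over all probesets. The other bright probesets did not pass at day 35 (adjusted p from 0.0623 to 0.186). In the early phase all 5 probesets had positive differences that did not pass, from 0.01 to 0.11.

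**Figure D4:**
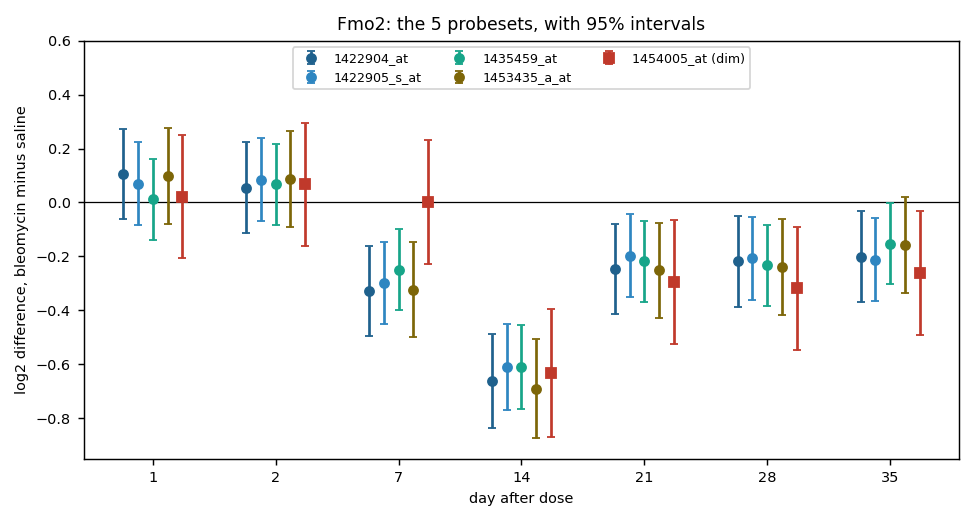
Log2 difference between bleomycin and saline lungs (vertical axis, with 95% intervals) by day (horizontal axis) for the 5 probesets of Fmo2. At day 14 the probesets lie between -0.69 and -0.61, and at day 7 the dim probeset (squares) had 0.00 while the other 4 had -0.33 to -0.25.

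The responses of the 3 phases were then compared with each other, each as the mean difference between bleomycin and saline lungs over the days of a phase. In active fibrosis 4 of the 8 responses were lower and 0 higher than in inflammation, where 15.8% of all genes were lower and 20.4% higher: Cyp4b1 by -0.56 (standard error 0.08, adjusted p = 1.9e-08, limma), Fmo2 by -0.36 (standard error 0.12, adjusted p = 0.0100), Aldh1a1 by -0.21 (standard error 0.04, adjusted p = 6.14e-06) and Cbr2 by -0.21 (standard error 0.05, adjusted p = 0.000473). In late fibrosis 4 responses were higher and 0 lower than in active fibrosis, where 11.9% of all genes were higher and 14.9% lower. They were Cyp4b1 (0.31, adjusted p = 0.000855), Cyp2f2 (0.28, adjusted p = 8.01e-07), Cbr2 (0.26, adjusted p = 2.87e-06) and Aldh1a1 (0.16, adjusted p = 0.000143, limma for each). The 4 brighter probesets of Fmo2 were higher as well, by 0.23 to 0.29, and the dim probeset differed by 0.02 (adjusted p = 0.898).

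Late fibrosis differed from inflammation in both directions. Cyp4b1 (-0.26, adjusted p = 0.00486) and Fmo2 (-0.34, adjusted p = 0.0104) had lower responses in the late phase, where 12.2% of all genes had. Cyp2f2 (0.17, adjusted p = 0.00318) and Scgb3a1 (0.86, adjusted p = 0.0384, limma for each) had higher ones, as did 16.3% of all genes. For Scgb3a1 the mean response was 0.21 in the late phase, -0.05 in active fibrosis and -0.64 in inflammation. Its lowest saline lungs had 10.37, 12.36 and 11.03 at days 21, 28 and 35, and another of day 35 had 12.05. The lowest bleomycin lungs of these days had 12.93, 12.64 and 12.14. How far single lungs set the late response of Scgb3a1 was not tested. With all 55 saline lungs as control the late-minus-early differences of Scgb3a1 and Fmo2 were 0.26 (adjusted p = 0.367) and -0.13 (adjusted p = 0.144, limma for each), and neither passed. The responses of Scgb1a1 and Scgb3a2 did not pass in any comparison of phases. Their late-minus-early differences were 0.00 (interval from -0.04 to 0.04) and 0.10 (0.00 to 0.19, adjusted p = 0.111, limma).

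Saline lungs themselves were compared across days, because each bleomycin group was set against the saline lungs of its day. Aldh1a1 and Fmo2 differed among the 7 saline groups (limma F test, adjusted p = 0.00522 and 1.27e-05), and 54.1% of all genes did. Mean Aldh1a1 was highest in saline lungs of day 14 (13.81) and lowest in those of day 21 (13.67). Mean Fmo2 (dim probeset) was lowest at day 7 (7.71) and highest at day 35 (8.30), so that against all 55 saline lungs the difference of Fmo2 at day 7 was -0.37 (adjusted p = 0.000152), while those of days 21 and 35 were -0.13 (adjusted p = 0.224) and -0.04 (adjusted p = 0.727, limma for each). The other 6 genes had saline means within 0.10 of each other, except Scgb3a1 with a range of 0.79.

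The enzyme genes varied together over bleomycin and saline lungs pooled. After the mean of each group was subtracted, Cyp2f2 and Cbr2 had the highest correlation of the 28 pairs, with Pearson r = 0.88 and Spearman rho = 0.82 over the 56 bleomycin and 55 saline lungs (each adjusted p at most 2.33e-05 over 28 pairs, permutation test within groups, two-sided, from the smallest p of 1e-05 that 100000 permutations can give). Without the 2 lungs farthest from the median of Cyp2f2 r was 0.87. Cyp2f2 and Aldh1a1 followed with r = 0.76 and rho = 0.69 (0.75 without 2 lungs), Cyp4b1 and Cbr2 with r = 0.76 and rho = 0.64 (0.71), and Cbr2 and Aldh1a1 with r = 0.71 and rho = 0.65 (0.69), each with an adjusted p at most 2.33e-05 by the same permutation test. In all, 20 of the 28 pairs passed by Pearson r, with Fmo2 given by its dim probeset. Among them was the negative pair of Scgb3a1 and Fmo2 (r = -0.22, adjusted p = 0.0179, permutation test). The share of passing pairs over all genes was not counted. A passing r need not be a close one: the 0.36 of Scgb1a1 with Fmo2 ranked 463 among the 15706 genes compared with Scgb1a1.

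Scgb3a1 did not share these correlations over all lungs. Its r with Cyp2f2, Cyp4b1 and Cbr2 was 0.09, -0.16 and -0.03, and rho was 0.10, -0.21 and -0.08 (permutation test, adjusted p for r = 0.392, 0.0792 and 0.804, and for rho = 0.313, 0.0359 and 0.463). With Scgb3a2 it had r = 0.58 and rho = 0.50 (0.50 without 2 lungs). Scgb1a1 was closest to Aldh1a1 (r = 0.65, rho = 0.69, 0.65 without 2 lungs), and for both of these pairs the adjusted permutation p was at most 2.33e-05. With Scgb1a1, Scgb3a1 and Scgb3a2, Cyp4b1 had r = 0.09, -0.16 and 0.24, and Fmo2 (dim probeset) 0.36, -0.22 and 0.15.

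For some pairs r was higher over bleomycin lungs than over saline lungs. Cyp4b1 and Cbr2 had r = 0.80 over 56 bleomycin lungs and 0.13 over 55 saline lungs. Fmo2, by its dim probeset (mean signal 7.98), had 0.79 and 0.10 with Cyp4b1 and 0.63 and -0.13 with Cyp2f2. Whether the brighter probesets of Fmo2 show the same was not tested. Cyp2f2 and Cyp4b1 had 0.72 in bleomycin lungs and 0.06 in saline lungs. For Cyp2f2 and Cbr2 the values were 0.92 in bleomycin lungs and 0.65 in saline lungs. Scgb3a1 had -0.08, -0.15 and -0.04 with Cyp2f2, Cbr2 and Aldh1a1 in bleomycin lungs, against 0.42, 0.29 and 0.29 in saline lungs. The difference between treatments in r was not tested, and the spread of Cyp4b1 at day 14 was 0.27 in bleomycin lungs, against 0.05 in saline lungs (SD, n = 8 and 7).

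**Figure D5:**
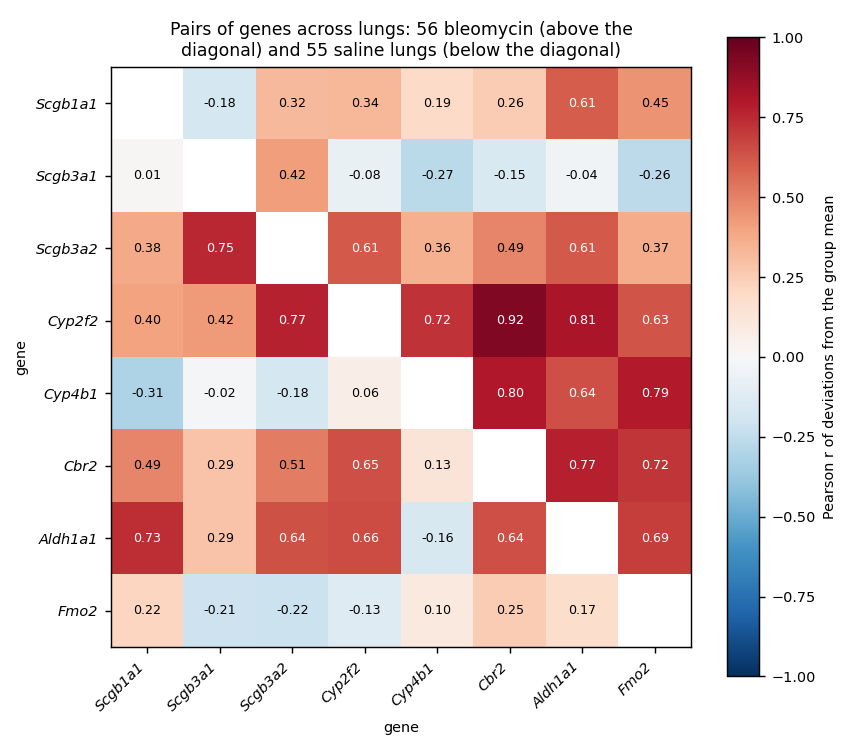
Pearson r between each pair of the 8 genes (both axes) after subtraction of group means, over 56 bleomycin lungs above the diagonal and 55 saline lungs below it. The 5 enzymes, with Fmo2 by its dim probeset, form a block of values from 0.63 to 0.92 in bleomycin lungs. Scgb3a1 has values of 0.42 or less with every other gene in those lungs.

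The genes whose levels lay closest to each member over all lungs, by the same correlation of deviations from group means, are given as a description because they were picked for their r. Scgb3a1 was nearest to Bpifb1 (r = 0.97, 0.97 without the 2 farthest lungs), Bpifa1 (0.94) and Reg3g (0.93). Scgb3a2 was nearest to Rsph4a (0.84), a radial spoke protein of motile cilia, Tmem212 (0.83) and Efcab1 (0.83). Scgb1a1 was nearest to the widely expressed genes Ywhaz (0.81), Tm9sf2 (0.81) and Selenop (0.77). The brightest signals share the top of the scale within an array, and how far this sets the likeness to Scgb1a1 was not tested.

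The enzymes had other neighbours. Cyp2f2 was nearest to Elapor1 (0.90), Ces1e (0.87) and the carboxylesterase Ces1d (0.86), and Cbr2 to Atp6v1c2 (0.90), a subunit of the vacuolar proton pump, Aox3 (0.87), an aldehyde oxidase, and Snhg11 (0.87). Cyp4b1 was nearest to Fibin (0.87), Cyp2d22 (0.86) and Dpysl5 (0.86), and Aldh1a1 to Pgrmc1 (0.87), Ces1d (0.75) and Sec14l3 (0.75). The dim probeset of Fmo2 was nearest to Rmdn2 (0.71), Ms4a4d (0.68) and Slc43a3 (0.67). On day 14 Elapor1 differed by -0.68 (adjusted p = 5.49e-08, limma), Atp6v1c2 by -1.07 (adjusted p = 1.41e-12), Cyp2d22 by -1.12 (adjusted p = 8.36e-11) and Snhg11 by -1.17 (adjusted p = 9.32e-10).

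Other genes of the club cell, 31 measured of 38 listed, fell mainly in the first 2 phases. Of the 31, 0 rose and 11 fell at day 1, 0 and 15 at day 2, 3 and 12 at day 7, 1 and 19 at day 14, 2 and 4 at day 21, 1 and 7 at day 28, and 3 and 4 at day 35. Their median log2 difference was -0.31 at day 14 and 0.03 at day 21. For this list and those below, the shares of all genes that rose and fell on each day are those given above. Chad, a matrix protein, fell by 1.40 at day 1 (standard error 0.24, adjusted p = 2.74e-06, limma), the secreted Lypd2 by 1.15 at day 2 (standard error 0.22, adjusted p = 1.67e-05), the sulfotransferase Sult1d1 by 1.41 at day 14 (standard error 0.43, adjusted p = 0.00495) and paraoxonase Pon1 by 1.04 at day 14 (standard error 0.16, adjusted p = 3.52e-08). Upk3a, a uroplakin of a club cell subset, rose in the late phase, with 0.93 at day 28 (standard error 0.09, adjusted p = 7.5e-13).

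Relatives of the 8 genes, 16 measured of 23, and enzymes of xenobiotic metabolism, 35 measured of 47, fell most often at day 14. Of the relatives 1 rose and 12 fell on that day, and of the xenobiotic enzymes 4 rose and 22 fell, with medians of -0.39 and -0.26. Cyp2e1, a P450 of ethanol metabolism, fell by 2.01 (standard error 0.48, adjusted p = 0.000323, limma), the monooxygenase Fmo5 by 1.09 (standard error 0.14, adjusted p = 1.59e-10), the aldehyde dehydrogenase Aldh3a1 by 0.94 (standard error 0.20, adjusted p = 8.35e-05) and the alcohol dehydrogenase Adh7 by 1.20 (standard error 0.27, adjusted p = 0.000157). Rising at day 7 were Aldh1a3, a retinaldehyde dehydrogenase like Aldh1a1, by 1.69 (standard error 0.24, adjusted p = 2.92e-09), and Mgst3, a microsomal glutathione transferase, by 0.54 (standard error 0.05, adjusted p = 2.82e-15). The lists overlap, with 22 genes on more than 1 of them.

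Transcription factors of the airway epithelium, 22 genes, held some that fell early and some that rose late. At day 2, 1 rose and 9 fell, at day 7, 0 rose and 10 fell, and at days 21 and 35 8 and 7 rose and 0 fell. Elf5 fell by 0.61 at day 2 (standard error 0.10, adjusted p = 4.05e-07, limma) and Irx2 by 0.76 at day 7 (standard error 0.08, adjusted p = 3.82e-13), and Elf3, an epithelial ETS factor, rose by 0.56 at day 21 (standard error 0.12, adjusted p = 7.95e-05).

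Markers of other airway cells moved on some of the same days as the club cell genes. Of 23 ciliated cell markers 0 rose and 14 fell at day 1, 1 and 13 at day 2, 1 and 3 at day 7, 1 and 7 at day 14, 3 and 1 at day 21, 0 and 1 at day 28, and 0 and 1 at day 35. Hydin, of the central apparatus of motile cilia, fell by 0.57 at day 2 (standard error 0.15, adjusted p = 0.00224, limma). Their mean level at day 1 was 9.84, 10.06 and 10.29 in bleomycin lungs (lowest, median and highest), against 9.79, 10.48 and 10.67 in saline lungs. Of 19 goblet and other secretory markers 2 rose and 2 fell at day 1, when 14.7% of all genes rose and 16.7% fell. At day 7, 5 rose and 0 fell, and the count that rose was near the 25.7% of all genes that rose. Among the 5 was Muc5ac, a gel-forming mucin, with 0.79 (standard error 0.21, adjusted p = 0.00106, limma). Basal cell markers, 10 genes, had 0 to 3 that rose and 0 that fell on each day. How much of the differences in the 8 genes goes with the share of airway in each lung was not tested.

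General epithelial genes and alveolar markers did not share the whole pattern. Of 17 general epithelial genes 0 rose and 4 fell at day 1, 6 rose and 1 fell at day 14, and 16, 11 and 12 rose and 0 fell at days 21, 28 and 35. The tight junction gene Cldn4 rose by 2.62 at day 7 (standard error 0.23, adjusted p = 6.68e-17, limma). Of 10 alveolar type II markers 0 rose and 6 fell at days 7 and 14, where the surfactant lipid transporter Abca3 fell by 0.66 at day 7 (adjusted p = 2.04e-11, limma) and by 0.44 at day 14 (adjusted p = 5.23e-06), and 4 rose and 1 fell at day 21. Of 11 alveolar type I markers 3 rose and 2 fell at day 14, when 21.9% of all genes rose and 19.7% fell. At day 2, 0 of the type I markers rose and 7 fell. On that day 0 general epithelial genes rose and 7 fell, and 1 type II marker rose and 4 fell. Of all genes 14.2% rose and 13.1% fell at day 2.

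Other cells of the lung moved as well on the day with the most falls. At day 14, 9 of 11 markers of matrix-producing fibroblasts rose and 0 fell, and their mean level ran from 10.48 to 11.33 in bleomycin lungs, against 9.47 to 9.81 in saline lungs. The matrix gene Tnc rose by 2.82 on that day (standard error 0.37, adjusted p = 5.42e-10, limma). Of 8 leukocyte markers 4 rose and 0 fell, with a mean level of 10.54, 10.84 and 11.14 in bleomycin lungs, against 10.31, 10.53 and 10.89 in saline lungs. Of 10 endothelial markers 0 rose and 7 fell, 3 of 14 cartilage markers rose and 1 fell, and 0 of 2 red blood cell markers passed (both fell at day 7). Of all genes 21.9% rose and 19.7% fell at day 14, and the cartilage markers that rose were near that share. Endothelial markers still fell at day 21, 9 of 10, when 2 of the 8 genes did (Cyp4b1 and Fmo2). At days 1 and 2, when neither of these passed, 1 of 10 endothelial markers fell on each day. At day 7, 9 fell and 1 rose, and Cyp4b1 passed while the dim probeset of Fmo2 did not. At day 28, 8 fell and both genes passed. At day 35, 7 fell and Cyp4b1 passed while the dim probeset of Fmo2 did not. The part of these shifts in cell makeup in the levels of the 8 genes was not tested.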

How the data were processed

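RNA of whole lungs was hybridized, 1 mouse per array. The methods state that the authors amplified it (NuGEN Ovation), reassigned probes by their match to the mouse genome, left out those that matched more than 1 place or were outdated, and applied RMA. The build is not given in the sources used here. The deposited values are on a log2 scale. Arrays carry no counts or depth, and their number limits precision. Of the 32688 probesets, those that the platform annotation ties to several genes (314) or to no named gene (4503) were set aside, and symbols were updated through RefSeq (27761 of 27871 matched). A gene with several probesets took the one that varied most, which left 15707 genes. A model with 14 group means was fitted with limma 3.58.1 in R 4.3.3 (lmFit and eBayes), and p values were adjusted by Benjamini and Hochberg over genes within a contrast. Intervals are 95% limma intervals. The fit was tested on simulated data. Deviations from group means were compared between genes by permutation within groups.

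Alternatives were the brightest probeset or the mean of a gene's probesets, all probesets in 1 fit, a filter on the 30% dimmest genes, renewed quantile normalization, subtraction of array medians, array weights, a mean-variance trend, replicate number as a block, all saline lungs as control, 1 fit per day, and leaving out arrays that stand apart (those of days 7 and 21 chosen after seeing the data). Genes named from a list are among the 4 per direction and phase with the largest change of those that passed, and the 3 nearest genes of each member are named. Muc5b, Sftpc and Ager were chosen after their values were seen. The 8 genes and all lists were chosen with earlier results of these data known. The RefSeq promoters (GRCm38.p6) were searched for short motifs.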

Additional observations from a re-analysis of the deposited data

Results flagged for a closer look

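Of 112 groups of lungs tested (8 genes in 14 groups), 17 held a lung far from the others by Dixon's test, which chance gives in about 1 of 20 groups. For Scgb3a1 the lowest lung stood apart in 6 groups, with 11.89 in bleomycin replicate 4 of day 1, 10.62 in bleomycin replicate 2 of day 7, 13.12 in saline replicate 7 of day 1, 13.38 in saline replicate 3 of day 2, 10.34 in saline replicate 5 of day 7 and 10.37 in saline replicate 6 of day 21. For Scgb3a2 the lowest lung stood apart in 3 groups, with 13.87 in bleomycin replicate 2 of day 7, 13.54 in bleomycin replicate 7 of day 14 and 13.86 in saline replicate 6 of day 21.

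Bleomycin replicate 3 of day 35 was lowest and apart for Cyp2f2 (13.6), Cbr2 (13.82) and Fmo2 (7.5). Saline replicate 3 of day 28 was lowest and apart for Scgb1a1 (14.53), Cyp2f2 (13.88) and Cbr2 (14.12). For Cyp4b1 saline replicate 4 of day 21 was lowest at 13.3, and for Aldh1a1 saline replicate 8 of day 2 was highest at 13.8.

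Responses to bleomycin differed between phases in 12 tests of limma. Active fibrosis minus inflammation gave -0.56 for Cyp4b1, -0.21 for Cbr2, -0.21 for Aldh1a1 and -0.36 for Fmo2. Late minus active fibrosis gave 0.28 for Cyp2f2, 0.31 for Cyp4b1, 0.26 for Cbr2 and 0.16 for Aldh1a1. Late fibrosis minus inflammation gave 0.86 for Scgb3a1, 0.17 for Cyp2f2, -0.26 for Cyp4b1 and -0.34 for Fmo2.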

How the results depend on the processing

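The number of the 8 genes that fell stayed within 1.5 times the reported count under every alternative at days 1, 2, 7 and 14. Of the late-minus-early responses 2 were lower, and 1 with all saline lungs as control. At day 21 it was 2 and became 5 with array weights, 5 with all saline lungs as control and 4 without bleomycin replicate 4. At day 28 it was 5 and became 3 with array medians subtracted. At day 35 it was 2 and became 5 with array weights, 5 with all saline lungs as control, 1 with the replicate block, 0 in 1 fit per day and 0 without bleomycin replicate 3. The count of genes that differed among saline days was 2, and 1 after quantile normalization. Replicate numbers did not pair the lungs: of 55 same-numbered pairs 23 had a correlation over 0.1 (median 0.06, from -0.33 to 0.41) and 10 lungs correlated best with their own number. With the replicate block Scgb3a2 at day 35 had an adjusted p of 0.0534 in limma. Of 900 single values, 815 kept their direction and side of the threshold, 18 of 415 called values lost the call, 40 gained it and 27 changed sign. Of these 27, 0 were called with the reported settings, and 7, all of Fmo2 at day 7, passed under the alternative. The value for Fmo2 day 7 changed sign to -0.25 (brightest probeset), -0.24 (mean of probesets), -0.0558 (quantile), -0.0567 (array medians), -0.0512 (array weights), -0.37 (all saline), -0.0506 (without saline replicate 3) and -0.33, -0.30, -0.25 and -0.32 in its other probesets. Under all saline as control Scgb3a1 had -0.25, 0.0112 and -0.33 at days 7, 14 and 35, Aldh1a1 -0.0581 and Fmo2 -0.17 at day 2, Cyp4b1 -0.0113 at day 1, and Scgb1a1 0.0142 in active minus early and -0.0011 in late minus active. Scgb3a1 day 7 had -0.0371 (array medians) and -0.0575 (array weights), and Scgb3a1 day 35 -0.00812 without bleomycin replicate 3. Aldh1a1 day 2 had -0.0279 (quantile) and -0.00882 (array weights), late minus active Scgb3a2 -0.0148 (quantile), and late minus early Scgb1a1 -0.0035 (array medians) and -0.0057 (array weights). The cause was not tested. Arrays give no depth, and 8 lungs a group limit precision.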
